A study of Mus musculus with 2 samples.

Results

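Mitotic genes were followed in 2 RNA-seq libraries of mouse embryonic fibroblasts, connective tissue cells grown from embryos. The UKS library came from a line with deleted Usp16 (Usp16-/-), and the KS library from a line with wild-type Usp16 (Usp16+/+). Both lines were on a C57BL/6 background, carried SV40 T antigen, a viral oncoprotein that binds p53 and RB-family proteins and lets fibroblasts grow on, and were infected with a Cre adenovirus, which cut out the floxed Usp16 of the UKS line. The comparison asks how transcript levels differ between such fibroblasts without and with Usp16. The members are 56 genes with a textbook role in mitosis, taken by symbol from the deposited tables of 51912 gene rows and placed in 9 function groups by what their products do. All 56 were found on 1 row each, and all passed the filter used for measured genes, a mean of at least 1 CPM (counts scaled to library size, with edgeR's TMM factors), as did 13015 genes in all. With 1 library per group there is no replicate check and no test, so each value describes these 2 libraries.

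The totals were 23205757 counts in UKS and 26561619 in KS, and 1 count equalled 0.0428 CPM in UKS and 0.0379 CPM in KS. Nothing in the labels gives more than 1 culture per line, and the lines differed in sex-linked transcripts: Xist, the RNA of the inactive X chromosome, had 6998 counts in UKS and 1 in KS, and the Y-linked Ddx3y had 1 in UKS and 1511 in KS. Usp16 itself had 459 counts in UKS, against 1195 in KS, 2.30-fold lower in UKS [2.07 to 2.57]. Its log2 ratio was −1.16, and −0.88, short of 2-fold, with the trend of transcript length and GC content described below removed. Which of its exons were deleted is not given in the labels, so reads outside them may be counted here. How complete the deletion was in this culture was not tested. Of 10 fibroblast markers all were measured, and the collagen gene Col1a1 had 24265 counts in UKS, against 31725 in KS. The fibroblast surface markers Thy1 and Pdgfra were at least 2-fold lower in UKS (log2 ratios of −2.20 and −1.51). The other 8 lay within 2-fold as counted. Of these Fn1 (0.70), P4hb (0.60), Pdgfrb (0.48) and S100a4 (0.14) were higher in UKS. Col1a2 (−0.86), Vim (−0.80), Col3a1 (−0.46) and Col1a1 (−0.21) were lower. With the trend described below removed, Thy1 (−2.65), Vim (−1.14) and Pdgfra (−1.11) were at least 2-fold lower, and no marker was at least 2-fold higher. Of 16 markers of blood, epithelial and endothelial cells 12 had a mean under 1 CPM, and the others were Cd68 (113 counts in UKS and 154 in KS), Krt18 (18 in UKS and 78 in KS), Kdr (19 in UKS and 38 in KS) and Vwf (35 in UKS and 26 in KS). Of these 12, Adgre1, Cd3e, Krt5 and Krt14 were among those at 0 in both libraries. Others of the 12, including all its endothelial markers, had low counts, up to 17 for Epcam in KS.

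A cell enters mitosis when cyclin B switches on the kinase CDK1. Condensins then compact the chromosomes, kinesins and their partners build the spindle, and kinetochores attach chromosomes to it, while the spindle assembly checkpoint restrains the anaphase-promoting complex (APC/C) until all are attached. The APC/C then releases separase, chromosomes part, and cytokinesis divides the cell. Most mitotic genes peak together late in the cell cycle under MuvB complexes with B-MYB and FOXM1, and are repressed outside it by the DREAM complex, which needs RB-family proteins. USP16 takes ubiquitin off histone H2A, and in human cells it is phosphorylated in mitosis and its loss slows mitotic progression. In bulk RNA, a smaller share of cells in mitosis and less RNA per mitotic cell cannot be told apart.

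Promoters are printed to show the letters of 2 elements common in mitotic genes, for the 3 members with the lowest and the 3 with the highest UKS over KS ratio among members with a promoter in the reference. Sequences are those of RefSeq on GRCm38.p6, 250 bases before to 30 bases after the annotated start, 5′ to 3′ on the gene's strand. Capitals mark TTTGAA, the core of the cell cycle genes homology region that MuvB complexes bind, and CCAAT, the element of the factor NF-Y, each on either strand (TTCAAA and ATTGG on the other). The 2 elements can share at most 1 base. The 3 lowest members were Cenpf at chr1:189688057-189688336 on the minus strand, Cenpe at chr3:135212313-135212592 on the plus strand and Kif20b at chr19:34922108-34922387 on the plus strand.
Cenpf: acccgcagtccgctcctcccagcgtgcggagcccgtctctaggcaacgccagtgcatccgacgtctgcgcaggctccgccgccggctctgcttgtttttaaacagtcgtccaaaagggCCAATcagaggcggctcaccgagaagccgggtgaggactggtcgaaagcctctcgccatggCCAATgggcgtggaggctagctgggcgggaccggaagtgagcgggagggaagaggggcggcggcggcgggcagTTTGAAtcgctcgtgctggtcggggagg
Cenpe: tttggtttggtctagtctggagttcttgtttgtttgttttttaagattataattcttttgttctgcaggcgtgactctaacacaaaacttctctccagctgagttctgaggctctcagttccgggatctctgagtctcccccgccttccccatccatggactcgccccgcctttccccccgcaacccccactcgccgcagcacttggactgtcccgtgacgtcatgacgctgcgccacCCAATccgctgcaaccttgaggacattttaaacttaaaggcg
Kif20b: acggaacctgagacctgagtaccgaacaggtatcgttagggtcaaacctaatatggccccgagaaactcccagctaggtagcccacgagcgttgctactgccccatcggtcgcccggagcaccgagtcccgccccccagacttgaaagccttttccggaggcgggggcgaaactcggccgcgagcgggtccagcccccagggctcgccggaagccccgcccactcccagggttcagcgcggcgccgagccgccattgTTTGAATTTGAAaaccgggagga
The 3 highest members were Pttg1 at chr11:43425952-43426231 on the minus strand, Cdk1 at chr10:69352883-69353162 on the minus strand and Bub3 at chr7:131560120-131560399 on the plus strand.
Pttg1: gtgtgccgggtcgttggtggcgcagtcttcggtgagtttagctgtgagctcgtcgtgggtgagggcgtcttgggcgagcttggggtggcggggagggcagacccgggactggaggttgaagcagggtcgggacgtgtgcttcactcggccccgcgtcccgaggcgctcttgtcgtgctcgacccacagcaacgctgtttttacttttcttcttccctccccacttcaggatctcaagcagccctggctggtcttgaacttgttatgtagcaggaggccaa
Cdk1: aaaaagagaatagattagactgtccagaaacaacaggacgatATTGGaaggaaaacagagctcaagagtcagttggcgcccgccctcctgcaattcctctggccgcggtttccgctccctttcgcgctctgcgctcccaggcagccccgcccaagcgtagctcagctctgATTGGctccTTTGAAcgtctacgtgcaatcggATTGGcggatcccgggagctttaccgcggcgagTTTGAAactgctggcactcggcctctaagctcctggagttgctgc
Bub3: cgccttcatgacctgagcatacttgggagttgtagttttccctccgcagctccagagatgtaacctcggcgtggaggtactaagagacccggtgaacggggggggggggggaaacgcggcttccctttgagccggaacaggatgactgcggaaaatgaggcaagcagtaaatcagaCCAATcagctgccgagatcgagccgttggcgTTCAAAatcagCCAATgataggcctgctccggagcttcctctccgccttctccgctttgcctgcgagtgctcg

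Both sets held genes with these elements. Cenpf had 1 TTTGAA starting at base 3 of the transcript and 2 CCAAT upstream, and Kif20b had 2 TTTGAA in a row and no CCAAT. Cdk1 had 2 TTTGAA and 3 CCAAT, and Bub3 had 1 and 2. Cenpe had 1 CCAAT and no TTTGAA, and the Pttg1 window had neither. That window lies wholly inside Pttg1 as placed by GENCODE M21 (to 43426251 on the minus strand). Bases upstream of the GENCODE start were thus not read for Pttg1. Of 48 members with a promoter in the reference (3 of them with 2 starts, where either could count), 31 (64.6%) held TTTGAA, against 1304 of 9685 measured genes (13.5%) and 19.5% of all 27025 genes in the reference table. CCAAT was in 37 (77.1%), against 42.7% of measured genes and 39.7% of all, and both elements were in 28 (58.3%), against 5.55% of measured genes. Among members at least 2-fold lower in UKS, TTTGAA was in 10 of 12 promoters, and among the other members in 21 of 36. A match is only a run of letters in this window.

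Mitotic genes did not share one direction. Together the 56 genes took 113715 counts in UKS, 0.490% of the library [0.487 to 0.493], and 162729 in KS, 0.613% [0.610 to 0.616]. Brackets here and below give exact 95% intervals that cover counting error only. On the scale log2((UKS + 1)/(KS + 1)) of CPM, which understates the difference of low genes, 13 members (23.2%) were at least 2-fold lower in UKS and none at least 2-fold higher. Over all measured genes 10.7% were at least 2-fold lower and 5.81% at least 2-fold higher. The median member stood at −0.15, against 0.032 over all measured genes. Counting intervals of the fold lay wholly below equal levels for 29 members, wholly above for 21 and included equal levels for 6. Around the 2-fold line, the checkpoint kinase gene Ttk (−1.07) was just past it and the cytokinesis gene Ect2 (−0.97) just short of it. Gene positions below are those of GENCODE M21 on GRCm38.

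**Figure D1:**
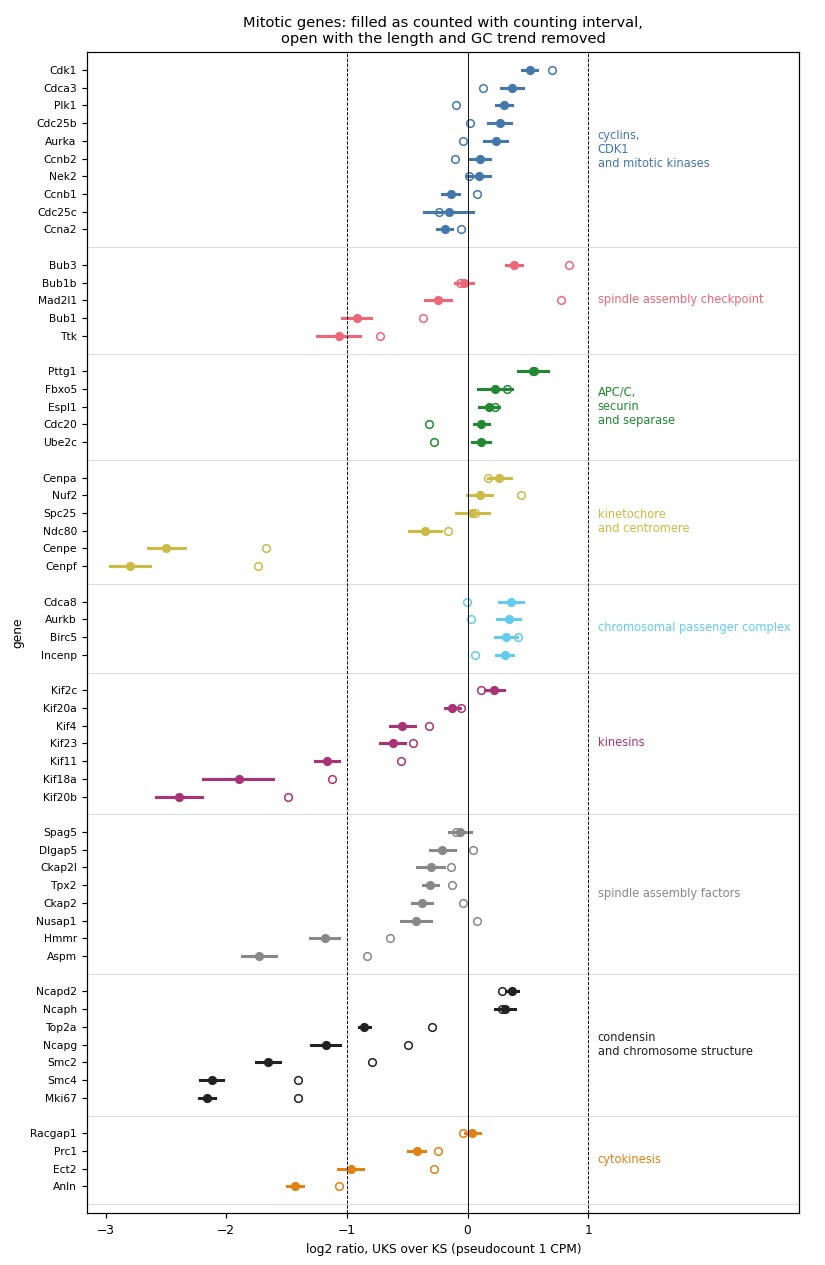
Log2 ratio of each mitotic gene (UKS over KS, x axis), by function group. Filled points are the ratio as counted with its exact 95% counting interval, open points the ratio with the trend of transcript length and GC content removed, and dashed lines mark 2-fold. The 13 genes left of the lower line lie in 6 of the 9 groups, and none lies right of the upper line.

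Across the whole transcriptome, longer and more AT-rich transcripts had lower ratios (Spearman's correlation over measured genes −0.40 with transcript length and 0.52 with GC content), so a second value is given beside the ratio as counted, with a regression on length and GC content subtracted. On that scale 7 members were at least 2-fold lower, namely Cenpf, Cenpe, Kif20b, Mki67, Smc4, Kif18a and Anln, against 4.97% of all measured genes, and none was at least 2-fold higher, against 5.51%. The median member then stood at −0.078. Of all genes past 2-fold, those higher in UKS made up 35.1% as counted and 52.6% on this scale. Subtracting a trend also takes away any biological difference that runs along it.

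The genes that start mitosis differed little between the libraries. Of 10 cyclin, CDK1 and mitotic kinase genes none was past 2-fold, with ratios from −0.19 to 0.51 and a median of 0.17 (−0.0089 with the trend removed). Cdk1, the kinase that drives entry (chromosome 10, 69335146 to 69352938, minus strand), had 4850 counts in UKS, against 3830 in KS, 1.43-fold higher in UKS [1.37 to 1.49]. Its partners Ccnb1 and Ccnb2 (cyclins B1 and B2) stood at −0.14 and 0.10, and cyclin A2 (Ccna2) at −0.19. The Ccnb1 difference was small, with 3030 counts in UKS, against 3776 in KS. Plk1, which acts from entry through cytokinesis, had 3626 counts in UKS, against 3320 in KS, 1.23-fold higher in UKS [1.18 to 1.29], and per length it was the most abundant of the group in UKS, at 70.6 CPM per kb in UKS and 57.2 in KS. The spindle pole kinase Aurka stood at 0.23 and the centrosome kinase Nek2 at 0.093. Among activators of CDK1, the phosphatase genes Cdc25b and Cdc25c stood at 0.27 and −0.16, the second with an interval that included equal levels. Cdca3, which promotes mitotic entry, stood at 0.37. With the trend removed Plk1 (−0.10), Aurka (−0.034), Ccnb2 (−0.10) and Ccnb1 (0.079) lay on the other side of 0. Exons of Ccna2 overlap those of Exosc9 on the other strand, and Ccnb1 has near-identical processed pseudogenes that were listed at 0, so shared reads make both values uncertain.

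Genes of the APC/C branch, which ends mitosis, were all slightly higher in UKS as counted, while Cdc20 and Ube2c stood at −0.32 and −0.27 with the trend removed. The 5 members had ratios from 0.11 to 0.54 and a median of 0.18 (0.22 with the trend removed). Pttg1, which encodes securin, the inhibitor of separase (chromosome 11, 43420250 to 43426251, minus strand), had 1290 counts in UKS, against 993 in KS, 1.47-fold higher in UKS [1.35 to 1.60], the highest ratio of all 56. The APC/C activator Cdc20 had 3749 counts in UKS, against 3913 in KS, 1.08-fold higher in UKS [1.04 to 1.13], and it was first in level of the 56 in UKS and second in KS, at 89.6 CPM per kb in UKS and 82.7 in KS. Its ubiquitin-conjugating partner Ube2c had 2984 counts in UKS, against 3119 in KS. Separase (Espl1), a long transcript of 6658 nt with a high GC content of 56.1%, had 2202 counts in UKS, against 2198 in KS, 1.13-fold higher in UKS [1.07 to 1.20]. The APC/C inhibitor EMI1 (Fbxo5) stood at 0.23. Exons of Elovl1 overlap those of Cdc20 on the other strand, and without strand their reads cannot be told apart.

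Checkpoint genes did not share a direction. Ttk, the MPS1 kinase that starts the signal (chromosome 9, 83834689 to 83872389, plus strand), had 357 counts in UKS, against 876 in KS, 2.17-fold lower in UKS [1.92 to 2.46]. Bub1, a kinase at the kinetochore, had 807 counts in UKS, against 1749 in KS, 1.92-fold lower in UKS [1.76 to 2.09], short of 2-fold on the log2 scale at −0.92. Both stood nearer to 0 with the trend removed, at −0.73 and −0.37. Bub1b, which encodes BUBR1 of the inhibitory complex, had 2807 counts in UKS, against 3242 in KS, an interval that included equal levels. Bub3, the binding partner of BUB1 and BUBR1, had 4240 counts in UKS, against 3663 in KS, 1.31-fold higher in UKS [1.25 to 1.37]. Mad2l1, which encodes MAD2, had 1272 counts in UKS, against 1711 in KS, 1.19-fold lower in UKS [1.11 to 1.28]. Of the 5 genes 1 was thus at least 2-fold lower, against 10.7% of all measured genes. The group median was −0.25 (−0.061 with the trend removed). The trend-removed values of Mad2l1 (0.78) and Bub3 (0.84) were the second highest and the highest of the 56 on that scale. The Mad2l1 value rests on an annotated transcript of 7557 nt that holds only 205 codons, which need not be the one expressed.

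The kinetochore group held the lowest ratios of all. Cenpf, a large protein of the outer kinetochore and nuclear envelope in G2 and mitosis (chromosome 1, 189640606 to 189688086, minus strand), had 328 counts in UKS, against 2735 in KS, 7.37-fold lower in UKS [6.57 to 8.30]. Cenpe, a kinesin at the kinetochore that moves chromosomes to the spindle equator (chromosome 3, 135212537 to 135273611, plus strand), had 402 counts in UKS, against 2689 in KS, 5.92-fold lower in UKS [5.33 to 6.59]. Their log2 ratios of −2.80 and −2.50 became −1.74 and −1.67 with the trend removed. The other 4 members lay within 2-fold. The centromeric histone Cenpa stood at 0.26, and of the microtubule-binding NDC80 complex Ndc80 stood at −0.35, Nuf2 at 0.10 and Spc25 at 0.040. The group median of −0.16 (−0.048 with the trend removed) falls between Ndc80 and Spc25, far from the lower pair. A short stretch of the longest Cenpf transcript, up to 194 nt, matches transcripts of other genes at 95% identity or more, so a part of its reads may have been split. Ndc80 matches the pseudogene 2700099C18Rik at 95.05% identity over 303 nt. That pseudogene had 153 counts in UKS and 290 in KS, so shared reads make the Ndc80 value uncertain.

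All 4 genes of the chromosomal passenger complex, which corrects attachments and later guides cytokinesis, were slightly higher in UKS as counted, while Cdca8 stood at −0.0013 with the trend removed. The kinase Aurkb had 1860 counts in UKS, against 1655 in KS, and the scaffold Incenp had 3612 counts in UKS, against 3293 in KS. Survivin (Birc5) had 1998 counts in UKS, against 1805 in KS, and borealin (Cdca8) had 1723 counts in UKS, against 1513 in KS. Their folds ran from 1.24-fold for Incenp to 1.29-fold for Cdca8, a spread narrower than in any other group. The median of 0.33 was 0.047 with the trend removed. Birc5 matches Trim27 at 95.1% identity over 163 nt, and Trim27 had 2055 counts in UKS and 2192 in KS. The annotated Birc5 transcript of 3334 nt holds only 121 codons and need not be the one expressed. Both make the Birc5 value uncertain.

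Kinesins, the motors of the spindle, were lower in UKS in 6 of 7 cases, 3 of them at least 2-fold. Over all measured genes 48.1% lay below 0 and 10.7% were at least 2-fold lower. Kif20b, a motor of late mitosis and abscission (chromosome 19, 34922361 to 34975745, plus strand), had 271 counts in UKS, against 1717 in KS, 5.60-fold lower in UKS [4.93 to 6.39]. Kif18a, which damps chromosome oscillations at the plate (chromosome 2, 109280738 to 109341747, plus strand), had 122 counts in UKS, against 586 in KS, 4.25-fold lower in UKS [3.49 to 5.21], the fewest counts of any member in UKS. Kif11, the bipolar motor that separates the poles (chromosome 19, 37376403 to 37421859, plus strand), had 1138 counts in UKS, against 2911 in KS, 2.26-fold lower in UKS [2.11 to 2.43]. With the trend removed Kif20b (−1.48) and Kif18a (−1.12) stayed past 2-fold and Kif11 (−0.55) did not. Kif23, the centralspindlin motor, stood at −0.62, and the X-linked chromokinesin Kif4 stood at −0.54, each within 2-fold. Kif20a, a motor of the central spindle, had 4106 counts in UKS, against 5067 in KS, and the microtubule depolymerase Kif2c, the one higher member, had 2527 counts in UKS, against 2445 in KS. The group median was −0.62 (−0.45 with the trend removed). Exons of Kif20a and of Cdc23 overlap on opposite strands, as do those of Kif4 and Pdzd11, which makes the values of both kinesins uncertain.

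All 8 spindle assembly factors had a ratio below 0 as counted, against 48.1% of all measured genes. With the trend removed Nusap1 and Dlgap5 stood at 0.076 and 0.045. Aspm, a spindle pole protein (chromosome 1, 139454772 to 139494091, plus strand), had 518 counts in UKS, against 1996 in KS, 3.41-fold lower in UKS [3.09 to 3.76]. Hmmr, a microtubule-binding partner of TPX2 (chromosome 11, 40701395 to 40733422, minus strand), had 764 counts in UKS, against 1995 in KS, 2.31-fold lower in UKS [2.12 to 2.51]. The other 6 lay within 2-fold, from −0.43 for the microtubule bundler Nusap1 to −0.059 for the pole protein Spag5, whose interval included equal levels. Tpx2, the activator of Aurora A, was the most abundant of them per length, with 3604 counts in UKS, against 5056 in KS. Dlgap5, which stabilizes kinetochore fibres, stood at −0.21, and Ckap2 and Ckap2l stood at −0.37 and −0.31. The median was −0.34, and −0.11 with the trend removed, where Aspm stood at −0.83 and Hmmr at −0.64, short of 2-fold. Exons of Nusap1 overlap those of Oip5 on the other strand, which had 443 counts in UKS and 404 in KS. This makes the Nusap1 value uncertain.

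Chromosome structure genes had the lowest group median, −1.18 (−0.50 with the trend removed), with members on both sides of 0. Mki67, the proliferation marker Ki-67 that coats mitotic chromosomes (chromosome 7, 135689784 to 135716361, minus strand), had 2043 counts in UKS, against 10398 in KS, 4.50-fold lower in UKS [4.29 to 4.72]. The condensin ATPase genes Smc4 (chromosome 3, 69004738 to 69034623, plus strand) and Smc2 (chromosome 4, 52439243 to 52488260, plus strand) were both lower. Smc4 had 1086 counts in UKS, against 5420 in KS, 4.41-fold lower in UKS [4.13 to 4.72], and Smc2 had 1048 counts in UKS, against 3792 in KS, 3.20-fold lower in UKS [2.99 to 3.43]. Of the condensin I subunits that join them, Ncapg (chromosome 5, 45669919 to 45700546, plus strand) had 785 counts in UKS, against 2040 in KS, 2.30-fold lower in UKS [2.12 to 2.50]. The other 2 were on the other side: Ncapd2 had 7060 counts in UKS, against 6182 in KS, 1.29-fold higher in UKS [1.25 to 1.34], and Ncaph had 2374 counts in UKS, against 2161 in KS, 1.24-fold higher in UKS [1.17 to 1.32]. Top2a, the topoisomerase that untangles sister DNA, was the most abundant member in KS per length, with 5763 counts in UKS, against 11815 in KS, 1.81-fold lower in UKS [1.76 to 1.87], within 2-fold at −0.86. With the trend removed Mki67 (−1.40) and Smc4 (−1.40) stayed past 2-fold, while Smc2 stood at −0.79 and Ncapg at −0.50. Exons of Ncapg overlap those of Lcorl on the other strand, which had 85 counts in UKS and 480 in KS.

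Of 4 cytokinesis genes 1 was at least 2-fold lower in UKS, against 10.7% of all measured genes. Anln, the anillin scaffold of the contractile ring (chromosome 9, 22332012 to 22389188, minus strand), had 2450 counts in UKS, against 7493 in KS, 2.70-fold lower in UKS [2.58 to 2.83], and stayed past 2-fold with the trend removed (−1.06). Ect2, the exchange factor that activates RhoA at the equator, had 1061 counts in UKS, against 2372 in KS, 1.98-fold lower in UKS [1.84 to 2.13], and stood at −0.28 with the trend removed. The midzone bundler Prc1 stood at −0.42. Its exons overlap those of Rccd1 on the other strand, which had 128 counts in UKS and 162 in KS. Racgap1, the partner of Kif23 in centralspindlin, had 4243 counts in UKS, against 4664 in KS, with an interval that included equal levels, and a log2 ratio of 0.040 (−0.042 with the trend removed). The group median was −0.69 (−0.26 with the trend removed).

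**Figure D2:**
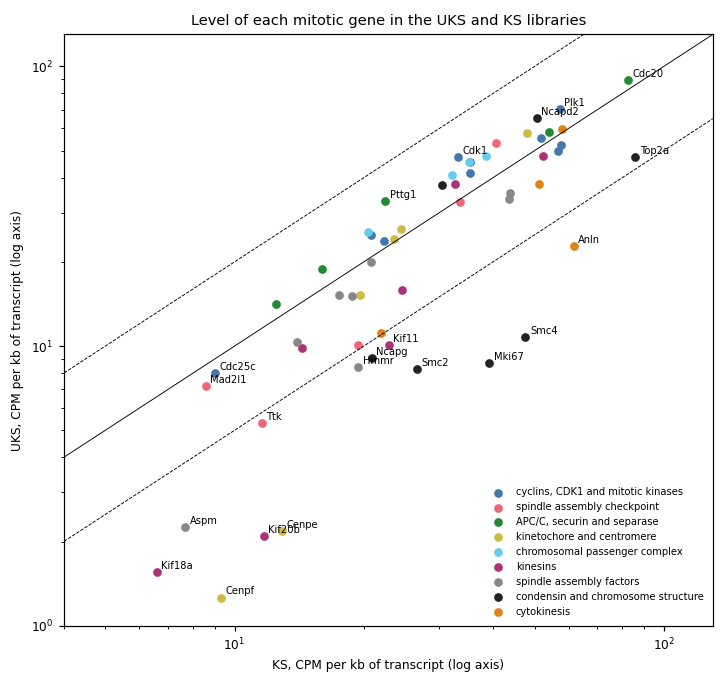
Level of each mitotic gene per kb of its longest protein-coding transcript, UKS on the y axis and KS on the x axis (both log). The solid line marks equal levels and dashed lines 2-fold, and colours are the function groups. Cdc20 was the highest in UKS at 89.6 CPM per kb and Top2a the highest in KS at 85.7, while Cenpf was the lowest in UKS at 1.26.

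Levels per length compare subunits that act in one complex. In condensin I, Ncapd2 stood at 65.3 CPM per kb in UKS and 50.6 in KS, Ncaph at 37.7 CPM per kb in UKS and 30.4 in KS and Ncapg at 9.08 CPM per kb in UKS and 20.9 in KS. Smc2 stood at 8.31 CPM per kb in UKS and 26.6 in KS, and Smc4 at 10.8 CPM per kb in UKS and 47.6 in KS. Relative to Smc2, Ncapd2 was thus 7.86 times as high in UKS and 1.90 times in KS, and Ncaph 4.54 times in UKS and 1.14 times in KS. The log2 ratios of Smc2, Ncapd2 and Ncaph were −1.66, 0.37 and 0.31 as counted. With the trend removed they lay closer together, at −0.79, 0.28 and 0.28. The condensin II subunits, which are not among the 56 and were named after their values were seen, also lay on both sides, with Ncaph2 higher in UKS and the other 2 lower as counted (Ncapd3 had a log2 ratio of −0.29 as counted and 0.063 with the trend removed), Ncaph2 at 66.2 CPM per kb in UKS and 47.0 in KS, Ncapg2 at 9.53 CPM per kb in UKS and 18.3 in KS and Ncapd3 at 9.89 CPM per kb in UKS and 12.1 in KS. Proportions within the passenger complex were close in the 2 libraries. Relative to Aurkb, Incenp was 1.17 times as high in UKS and 1.20 times in KS, Cdca8 1.11 times in UKS and 1.10 times in KS, and Birc5 0.628 times in UKS and 0.638 times in KS. In the NDC80 complex, Nuf2 was 1.72 times Ndc80 in UKS and 1.25 times in KS, with the Ndc80 level uncertain from reads shared with a pseudogene. Racgap1 was 3.75 times its partner Kif23 in UKS and 2.36 times in KS. Ccnb1 was 1.10 times Cdk1 in UKS and 1.73 times in KS. These proportions depend on the transcript length taken for each gene, and they are as counted, without the length and GC trend removed.

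**Figure D3:**
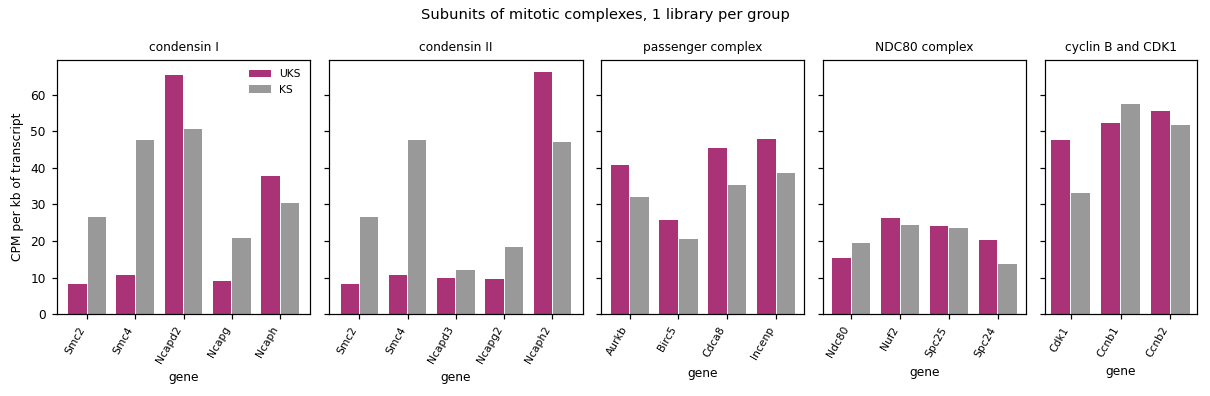
Level per kb of transcript (y axis) of the subunits of 5 mitotic assemblies, UKS left and KS right for each gene, with 1 library per bar. In both condensins the Smc2 and Smc4 bars are lower in UKS while Ncapd2, Ncaph and Ncaph2 are higher, and the 4 passenger bars are higher in UKS as counted.

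Within the 56, longer coding sequences went with lower ratios. Of 17 members with over 1000 codons 10 were at least 2-fold lower in UKS and 15 had a ratio below 0, with a median of −1.18. Of the 1701 measured genes of that coding length 25.3% were at least 2-fold lower, and their median was −0.41. The members of this class above 0 were Espl1 (2118 codons, 0.18) and Ncapd2 (1392 codons, 0.37), both with over 50% GC. Of 13 members with up to 400 codons none was past 2-fold, with a median of 0.32, against 0.22 over the 5087 measured genes of that class. Of those 5087 genes 5.09% were at least 2-fold lower, so none of 13 is near that share. The longest coding sequences were those of Mki67 (3177 codons), Aspm (3122), Cenpf (2997), Cenpe (2471), Espl1 and Kif20b (1774), and 5 of these 6 were at least 3-fold lower in UKS.

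Spearman's correlation of the ratio with coding length was −0.68 over the 56 genes and −0.31 over 12150 measured coding genes. With the noncoding part of the transcript it was 0.093 over the 56 and −0.33 over all. With GC content it was 0.68 over the 56 and 0.52 over all. Of 10 members with up to 42% GC 6 were at least 2-fold lower and all were below 0 as counted (Mad2l1 and Nusap1 stood at 0.78 and 0.076 with the trend removed), against 36.0% at least 2-fold lower among measured genes of that class. Of 16 members with over 50% GC none was at least 2-fold lower, against 3.32%. Once the trend with transcript length and GC content was removed, the correlation with coding length over the 56 was −0.67, and over all coding genes −0.17. The 17 longest then had a median of −0.55, with 6 at least 2-fold lower, against a median of −0.11 and 8.35% over all genes of that class. All genes here share the same 2 libraries, so these correlations describe them and carry no p-value.

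**Figure D4:**
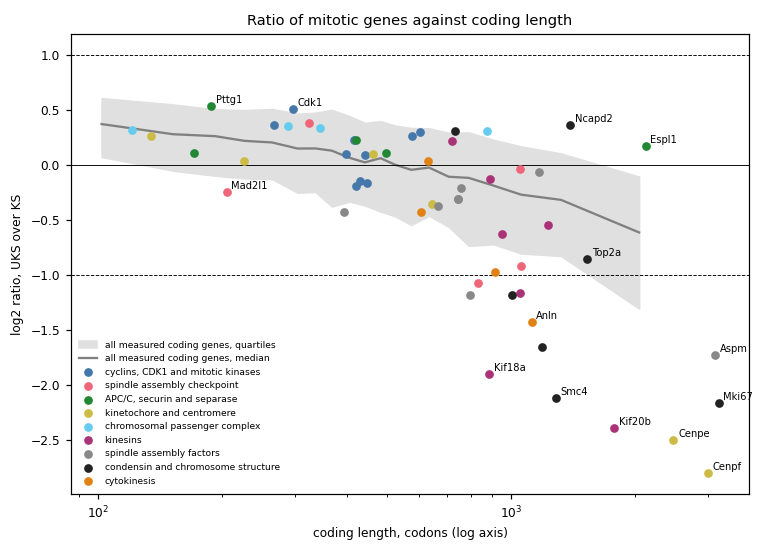
Log2 ratio (UKS over KS, y axis) of the 56 mitotic genes against coding length in codons (x axis, log), coloured by group. The grey line and band are the median and quartiles of all measured coding genes in bins of equal gene number, and dashed lines mark 2-fold. Kif20b, Smc4, Kif18a, Smc2 and Anln are among the genes below the band. Cenpe, Cenpf, Aspm and Mki67 lie right of its last bin at −1.72 or lower, where Espl1 lies above 0.

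Genes of mitosis that are not among the 56 were read in the same libraries. Of 154 such genes in 9 lists all were measured, 25 (16.2%) were at least 2-fold lower in UKS and none at least 2-fold higher, against 10.7% lower and 5.81% higher over all measured genes. Their median was −0.10, against 0.032 over all. With the trend removed 7 (4.55%) were lower, a share near the 4.97% of all measured genes, and 2 were higher, Cenpw (1.66) and Nek6 (1.16), both named after their values were seen. The list of condensin II and cohesin, the ring that holds sister chromatids, had the most, with 10 of 20 at least 2-fold lower. The cohesin loader Nipbl was 5.15-fold lower, the ring subunit Smc3 3.78-fold, the X-linked subunit Stag2 3.57-fold and the cohesin protector Sgo2a 3.44-fold. With the trend removed Nipbl (−1.32) and Smc3 (−1.29) stayed past 2-fold and Stag2 and Sgo2a did not.

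Among other kinetochore genes the scaffold Knl1 had 214 counts in UKS, against 1226 in KS, 5.07-fold lower in UKS [4.38 to 5.89], and stood at −0.97 with the trend removed. Cenpc1 (−0.84) and Cenpm (0.77) lay within 2-fold on either side. Among checkpoint genes outside the 56 the nuclear pore protein Tpr, which holds MAD1 and MAD2 at the pore, was 4.95-fold lower in UKS [4.69 to 5.23], and Mad1l1, Trip13 and Mad2l1bp stood between −0.086 and 0.53 (between −0.28 and 0.16 with the trend removed). Of 15 other cytokinesis genes 4 were at least 2-fold lower, against 10.7% of all measured genes. They were the RhoA effector kinases Rock2 (9.50-fold) and Rock1 (6.33-fold), the formin Diaph3 (2.84-fold) and the abscission protein Cep55 (2.12-fold). With the trend removed Rock2 (−2.28) and Rock1 (−1.66) lay past 2-fold, and Diaph3 (−0.95) and Cep55 (−0.80) did not. Of 26 centrosome and spindle pole genes 5 were at least 2-fold lower, against the same 10.7%. They were led by the microtubule polymerase Ckap5 (−1.57), the centrosome scaffold Cep192 (−1.53), Haus3 (−1.37) and Cep152 (−1.18). Of these 4 only Cep152 (−1.02) stayed past 2-fold with the trend removed.

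Among other mitotic kinesins 2 of 6 were lower, Kif15 (−1.18) and Kif2a (−1.01), but both lay within 2-fold with the trend removed (−0.60 and −0.060), and Kif2a also with total counts alone. Kif14 (−0.84) and Kif18b (0.57) lay within 2-fold as counted. APC/C subunits and partners had a median of 0.33 (0.14 with the trend removed). Cdc27 (−1.20) was the 1 of 16 past 2-fold as counted, but not with the trend removed (−0.35), and Anapc1, Anapc11 and Anapc7 stood at −0.60, 0.60 and 0.55 (0.044, 0.41 and 0.50 with the trend removed). None of 17 other entry regulators was past 2-fold as counted, against 10.7% of all measured genes at least 2-fold lower and 5.81% higher. Mastl, the Greatwall kinase, stood at −0.88 and Nek7 at −0.83, against 0.62 for the CDK1-inhibiting kinase Pkmyt1 and 0.54 for the PP2A inhibitor Ensa. With the trend removed Mastl stood at −0.090, Nek7 at −0.036, Pkmyt1 at 0.14 and Ensa at 0.70. None of 18 factors that control mitotic transcription was past 2-fold either. Foxm1 had 3169 counts in UKS, against 3980 in KS, 1.11-fold lower in UKS [1.06 to 1.16]. Mybl2, which encodes B-MYB, had 1071 counts in UKS, against 909 in KS, 1.33-fold higher in UKS [1.22 to 1.46]. Lin54, the MuvB subunit that binds the TTTGAA element, had 722 counts in UKS, against 1178 in KS, 1.44-fold lower in UKS [1.31 to 1.59], and stood at 0.10 with the trend removed. The largest in this list were E2f5 (−0.74), E2f8 (−0.62), Lin37 (0.59) and Tfdp2 (−0.55), of which Lin37 and Tfdp2 stood at 0.087 and 0.056 with the trend removed.

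**Figure D5:**
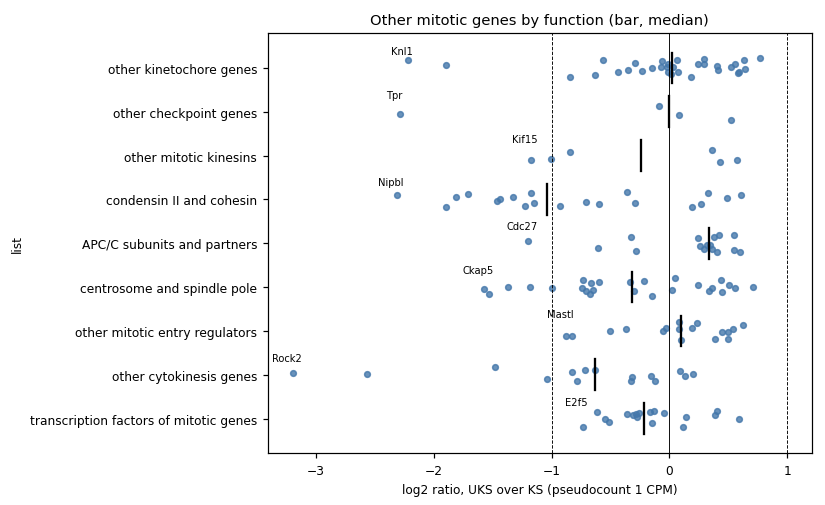
Log2 ratio (UKS over KS, x axis) of 154 mitotic genes outside the 56, by list (y axis), with 1 point per gene, a bar at each median and the lowest gene of each list named. No point lies right of the 2-fold line on the higher side, and the condensin II and cohesin list has the lowest median, −1.04.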

How the data were processed

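Per the labels' protocols, TRIzol RNA was made into TruSeq RNA libraries. The submitters' processing notes name HISAT2, StringTie and the build GRCm38.p5. How reads were counted, with which annotation release and with which strand setting is not given in the sources. The authors deposited estimated counts per gene, not scaled to depth. Counts that were not whole (21.5% of genes above 0 in UKS and 23.1% in KS) were rounded. TMM factors came from edgeR 4.0.16 and alternative size factors from DESeq2 1.42.0 in R 4.3.3. Intervals of count ratios are exact conditional binomial ones (Clopper-Pearson), from scipy 1.17.1. With 1 library per group, past 2-fold is a size and not a test.

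Length, GC content, coding length and coordinates came from GENCODE M21 (GRCm38), which held 51633 of 51912 gene identifiers, using the longest protein-coding transcript. To describe the trend, log2 ratios were regressed robustly (statsmodels 0.14.6, with Tukey's biweight) on log2 length and GC content, both with cubic terms, using measured genes in none of the lists. The 18 measured genes without these properties were left out of it. Transcripts of members were compared with all others by BLAST (at least 95% identity over 150 nt). Of the 56, 17 had such a match and 16 had exons that overlap another gene, and not all of these are named. The steps were tested on simulated data. Members, lists, named genes (all 56, up to 4 per other list by absolute ratio, and Foxm1, Mybl2 and Lin54) and alternatives were chosen with earlier results of these data known. Of the listed symbols, 3 septin genes and 1 marker that was on 2 rows were not analysed here. Another engineered change, which both lines carry, and some listed genes are not reported here.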

Additional observations from a re-analysis of the deposited data

How the results depend on the processing

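DESeq2 size factors, total counts without a scaling factor, a pseudocount of 0.1 CPM, no filter and a mean of at least 10 CPM each left the same 13 members at least 2-fold lower and none higher, moved no member across 0, and left the group medians within counting error. Of the other lists, with total counts alone the count past 2-fold was 1 in other mitotic kinesins and 4, against 5, in centrosome and spindle pole. Removing the trend with length and GC content left 7 members lower (longest transcript) or 5 (mean length and GC content over a gene's protein-coding transcripts), and 11 and 17 members lay on the other side of 0. Over all genes, those higher made up 35.1% of genes past 2-fold as counted and 52.6% with the longest-transcript trend removed. With coding length in place of transcript length, an alternative added after seeing the data, 5 members were lower and 15 lay on the other side of 0. With the longest-transcript trend removed, medians that moved past counting error or turned were −0.0089 for cyclins, CDK1 and mitotic kinases, −0.061 for spindle assembly checkpoint, 0.047 for chromosomal passenger complex, −0.45 for kinesins, −0.11 for spindle assembly factors, −0.50 for condensin and chromosome structure, −0.26 for cytokinesis. Counts past 2-fold that moved by over 1.5 times were 0 in other mitotic kinesins, 2 in condensin II and cohesin, 0 in APC/C subunits and partners, 1 in centrosome and spindle pole, 1 in other mitotic entry regulators, 2 in other cytokinesis genes. With the mean-transcript trend removed, medians that moved past counting error or turned were −0.010 for all 56, 0.12 for spindle assembly checkpoint, 0.038 for APC/C, securin and separase, 0.11 for chromosomal passenger complex, −0.34 for kinesins, 0.052 for spindle assembly factors, −0.30 for condensin and chromosome structure, −0.37 for cytokinesis. Counts past 2-fold that moved by over 1.5 times were 0 in other mitotic kinesins, 3 in condensin II and cohesin, 0 in APC/C subunits and partners, 0 in centrosome and spindle pole. With the coding-length trend removed, medians that moved past counting error or turned were 0.053 for all 56, 0.052 for cyclins, CDK1 and mitotic kinases, 0.19 for spindle assembly checkpoint, 0.49 for APC/C, securin and separase, 0.10 for kinetochore and centromere, 0.089 for chromosomal passenger complex, −0.17 for kinesins, 0.076 for spindle assembly factors, −0.17 for condensin and chromosome structure, −0.062 for cytokinesis. Counts past 2-fold that moved by over 1.5 times were 1 in other kinetochore genes, 0 in other mitotic kinesins, 1 in condensin II and cohesin, 0 in APC/C subunits and partners, 0 in centrosome and spindle pole, 2 in other cytokinesis genes. In these settings values moved because a fitted trend was subtracted, and whether the trends are technical was not tested. No paired analysis was possible because each group has 1 library. Members had at least 122 counts in UKS and 463 in KS, so counting error was small, while variation between cultures, embryos and sexes could not be measured. Near the 2-fold line counting error still matters. The fold intervals of Ttk [1.92 to 2.46], Ect2 [1.84 to 2.13] and Bub1 [1.76 to 2.09] included 2-fold. The lack of replicates limits all these ratios.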
